A study of Mus musculus with 28 samples.

Results

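The AP-1 transcription factor genes described here are Jun, Junb, Jund, Fos, Fosb, Fosl1, Fosl2 and Atf3, which are 8 of the 50600 genes in the deposited RNA-seq table. They were taken by gene symbol, each symbol matched 1 row, and all 8 passed the filter on low values. The table holds 28 libraries of mouse cells, 2 for each of 14 groups, from an experiment that asked how the timing of p38 inhibition bears on reprogramming of fibroblasts to induced pluripotent stem cells (iPSCs). All groups are or began as mouse embryonic fibroblasts (MEFs), primary cells grown out of embryos. The labels give their genotype as WT, while the paper's methods describe OG2 MEFs, which carry a GFP reporter of pluripotency.

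Untreated MEFs received neither inhibitor nor reprogramming factors. The p38i-treated MEFs received SB203580, an inhibitor of the p38 MAP kinases, and no factors. The other 12 groups were induced with Oct4, Klf4 and Sox2 (OKS), delivered by retrovirus, and were collected on days 1, 3, 5 and 7. They fall into DMSO cells without inhibitor, p38i cells with SB203580 during induction, and pre-p38i cells that received it as MEFs before induction. The labels call the inducing arm without inhibitor a control and name no DMSO, which is the paper's name for it. Induced cells had been infected and moved to the induction medium iCD1, so the factors, the virus and time in culture cannot be told apart in a comparison of induced cells with MEFs. The labels put the MEFs in iCD1 too, whereas the methods describe a serum medium before induction. Every induced culture is a mixture, since retroviral delivery reaches cells unevenly and only some cells reprogram.

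AP-1 is a dimer. A Jun protein pairs with another Jun protein or with a Fos protein through a basic leucine zipper (bZIP), and the pair binds DNA at the motif TGACTCA or, with ATF partners, at motifs of the type TGACNTCA. Jun and Fos are classical immediate early genes, induced within minutes of growth factor, serum or stress signals, and MAP kinases, p38 among them, act on their transcription and on the proteins. In fibroblasts AP-1 is known for its part in growth, migration and matrix breakdown, and in reprogramming it is known as a factor of the somatic state whose sites close as cells move toward pluripotency.

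The 250 bases before the start that RefSeq gives for a gene were read for the motifs through which this family binds, since Jun, Fos and Atf3 are known to be under the control of AP-1 and ATF/CREB proteins. RefSeq (GRCm38.p6) gave this window for 7 of the 8 genes, all but Fosl1. For Jun and Fos it adjoins the gene's start in the deposited table, whereas for Atf3 and Fosl2 the RefSeq start lies inside the span the table gives and for Jund it lies upstream of that span. TGACTCA, searched on both strands, was in none of the 7 windows and in 4.46% of 32851 promoters of this length. A TGACNTCA match was in that of Jun, 45 bases before the start, and in 7.49% of all promoters. TGACGT, the core of the motif bound by CREB and ATF proteins, was looked for after the sequences had been seen. It was in the windows of Fos, 66 bases before the start, and Atf3, 8 bases before that RefSeq start on the opposite strand, and in 6.47% of all. The CArG box, to which serum response factor binds, was in none of the 7 windows and in 1.47% of all. Sites more than 250 bases before the start were out of reach of this search. A missing match therefore does not mean that a gene lacks the site. These 3 windows are shown because they hold the matches, which are in capitals, and they stand at chr4:95052223-95052472 (minus strand), chr12:85473640-85473889 (plus strand) and chr1:191183334-191183583 (minus strand).
Jun: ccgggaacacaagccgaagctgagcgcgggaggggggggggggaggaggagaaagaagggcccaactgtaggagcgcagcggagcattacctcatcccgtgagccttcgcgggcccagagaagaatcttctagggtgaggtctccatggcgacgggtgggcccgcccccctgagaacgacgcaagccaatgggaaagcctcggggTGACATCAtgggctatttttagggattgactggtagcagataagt
Fos: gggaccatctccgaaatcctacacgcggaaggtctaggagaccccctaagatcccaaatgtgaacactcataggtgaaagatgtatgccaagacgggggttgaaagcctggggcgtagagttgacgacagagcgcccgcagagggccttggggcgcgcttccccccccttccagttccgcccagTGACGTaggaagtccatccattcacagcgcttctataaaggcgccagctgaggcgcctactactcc
Atf3: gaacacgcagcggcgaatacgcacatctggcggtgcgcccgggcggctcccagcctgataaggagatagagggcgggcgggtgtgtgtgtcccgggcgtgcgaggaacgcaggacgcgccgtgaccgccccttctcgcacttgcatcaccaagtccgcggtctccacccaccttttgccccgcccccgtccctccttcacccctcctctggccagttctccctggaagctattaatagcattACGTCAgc

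Each value is a whole number, and a library's values total 991287 to 992537. They are read here as TPM, a transcript's share of its library per unit of length, that the authors rounded down, so levels can be set side by side between genes. The read depth is unknown and no counting error can be given. No pair of libraries was identical, and the labels do not say that the 2 libraries of a group came from separate cultures, so p-values measure only the spread between these libraries. A gene is called higher or lower where limma, run over all 13230 genes tested on log2(value + 1), gave a Benjamini-Hochberg adjusted p under 0.05. A log2 fold change on this scale understates the change of low genes. As a check of the labels, the summed value of 8 fibroblast marker genes was 7232 to 7436 in untreated MEFs, where Lum was at 0, and 6 pluripotency genes were at 0 in all MEF libraries. Since these are bulk RNA samples, fewer cells of a type and less of an RNA per cell cannot be told apart.

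Jund had the highest mean of the 8 genes, 200.1 over the 28 libraries, and ranked 795th of all genes in the table. Jun followed at 82.4, Junb at 75.5, Fosl1 at 43.3, Fosl2 at 25.8, Fos at 9.04, Atf3 at 4.07 and Fosb at 1.18. Fosb, the lowest, was listed at 0 in at least 1 library of 7 groups, and the steps of whole numbers are large beside the values of Fosb and Atf3.

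Jun (chromosome 4 of GRCm38, 95049034 to 95052222) encodes c-Jun, the partner of the Fos proteins that gave the family its name. It read 96 and 100 in untreated MEFs and 115 and 120 in p38i-treated MEFs. In DMSO cells it was 74 and 68 on day 1. Days 3, 5 and 7 of DMSO gave 93 and 80, then 80 and 87, then 66 and 70. In p38i cells it was 78 and 73, 82 and 85, 94 and 87, and 86 and 93 on those days, and in pre-p38i cells 63 and 60, 88 and 86, 76 and 75, and 68 and 64. Both MEF groups stood above every induced group, and pre-p38i day 1 stood below all others. From p38i day 5 to p38i day 3, 6 groups followed each other with overlapping libraries, and the highest group mean was 1.91 times the lowest. The antisense gene Junos overlaps Jun and was at most 12 in any library. Whether reads were counted by strand is not given in the sources used here, so reads of the 2 genes may not be separated.

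Junb (chromosome 8, 84974484 to 84978718) encodes a Jun protein often described as a brake on c-Jun. Its values were 175 and 189 in untreated MEFs and 120 and 122 in p38i-treated MEFs. The DMSO libraries held 71 and 67, 77 and 62, 78 and 82, and 62 and 76 on days 1, 3, 5 and 7. The p38i libraries held 69 and 68, 47 and 49, 47 and 47, and 60 and 52, and the pre-p38i libraries 68 and 63, 81 and 78, 59 and 61, and 46 and 37. The order of the groups opened with untreated and then p38i-treated MEFs, without overlap, and closed with pre-p38i day 7. The 5 groups from DMSO day 3 to pre-p38i day 1 overlapped from neighbour to neighbour. Prdx2 overlaps Junb on the opposite strand and was between 370 and 620 in every library, with its lowest values in the MEFs, where Junb was highest. Since the use of strand in the counting is not given, reads of Junb and Prdx2 may not be separated where they overlap.

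Jund (chromosome 8, 70698949 to 70700616) encodes JunD, known as the Jun protein of resting cells, expressed without acute stimulation. It read 177 and 171 in untreated MEFs and 263 and 268 in p38i-treated MEFs. In DMSO cells it went from 102 and 96 on day 1 through 194 and 163 on day 3 and 175 and 192 on day 5 to 242 and 214 on day 7. In p38i cells it was 146 and 149, 195 and 189, 284 and 260, and 318 and 292, and in pre-p38i cells 94 and 89, 179 and 184, 211 and 202, and 288 and 267. The highest group was p38i day 7, whose libraries stood above the overlapping groups pre-p38i day 7, p38i day 5 and p38i-treated MEFs. The lowest 3 groups, p38i day 1, DMSO day 1 and pre-p38i day 1, did not overlap each other.

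Fos (chromosome 12, 85473890 to 85477273) encodes c-Fos, the most transient member of the family after a stimulus. Both untreated MEF libraries held 7, and the p38i-treated MEFs 10 and 12. DMSO cells had 5 and 5, 15 and 10, 9 and 10, and 6 and 7 on days 1, 3, 5 and 7. The p38i cells had 6 and 5, 9 and 9, 9 and 7, and 9 and 12, and the pre-p38i cells 10 and 11, 21 and 16, 8 and 10, and 5 and 3. Pre-p38i day 3 alone stood clear at the top, and from DMSO day 3 downward each group overlapped the next.

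Fosb (chromosome 7, 19302696 to 19310051), a close relative of Fos, was at 3 and 4 in untreated MEFs, 4 and 4 in p38i-treated MEFs, and never above 3 after induction. On day 1 it was 3 and 1 in DMSO, 1 and 2 in p38i and 2 and 2 in pre-p38i. It was listed at 0 in all 6 libraries of day 3. On days 5 and 7 it was 1 in all 4 p38i libraries, 1 and 0 and then 0 and 1 in DMSO, and 1 and 0 and then 0 and 0 in pre-p38i.

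Fosl1 (chromosome 19, 5447703 to 5455945) encodes Fra-1, a Fos protein without the transactivation domain of c-Fos that is abundant in motile mesenchymal cells. It was 89 and 84 in untreated MEFs and 68 and 67 in p38i-treated MEFs. DMSO cells had 76 and 73, 41 and 39, 37 and 43, and 26 and 32 on days 1, 3, 5 and 7. The p38i cells had 68 and 69, 22 and 25, 26 and 21, and 18 and 17, and the pre-p38i cells 66 and 64, 37 and 37, 22 and 24, and 11 and 11. The group means spanned 7.86-fold, the widest range among the 7 genes without a group at 0. In GENCODE M21 the gene Ccdc85b overlaps the end of Fosl1 on the opposite strand, whereas by the deposited positions no gene overlaps Fosl1. Ccdc85b was at 85 and 78 in untreated MEFs, 134 and 142 in p38i-treated MEFs and 37 to 85 in the induced libraries. Without a stated use of strand in the counting, the reads of these genes cannot be told apart where they overlap. Day 7 libraries without overlap ran from DMSO over p38i down to pre-p38i, the lowest group of all.

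Fosl2 (chromosome 5, 32135801 to 32157842) encodes Fra-2, the relative of Fra-1 known for its place in fibroblast and matrix gene control. It was 79 and 75 in untreated MEFs and 84 and 80 in p38i-treated MEFs, and at most 22 in any induced library. DMSO cells had 22 and 21, 18 and 17, 16 and 17, and 15 and 15 on days 1, 3, 5 and 7. The p38i cells had 16 and 15, 14 and 15, 17 and 17, and 20 and 21, and the pre-p38i cells 21 and 21, 18 and 16, 14 and 12, and 13 and 12. After the MEFs came the overlapping groups DMSO day 1, pre-p38i day 1 and p38i day 7, and below them each group overlapped the next.

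Atf3 (chromosome 1, 191170296 to 191218039), a stress-induced ATF protein that pairs with Jun proteins, was low throughout. It was 6 and 10 in untreated MEFs and 5 and 6 in p38i-treated MEFs. DMSO cells had 3 and 3, 3 and 3, 4 and 3, and 3 and 6 on days 1, 3, 5 and 7. The p38i cells had 5 and 5, 3 and 3, 3 and 8, and 4 and 5, and the pre-p38i cells 3 and 3, 3 and 2, 4 and 3, and 2 and 3. Every group overlapped the next in order, so no step of the order exceeds the spread.

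**Figure D1:**
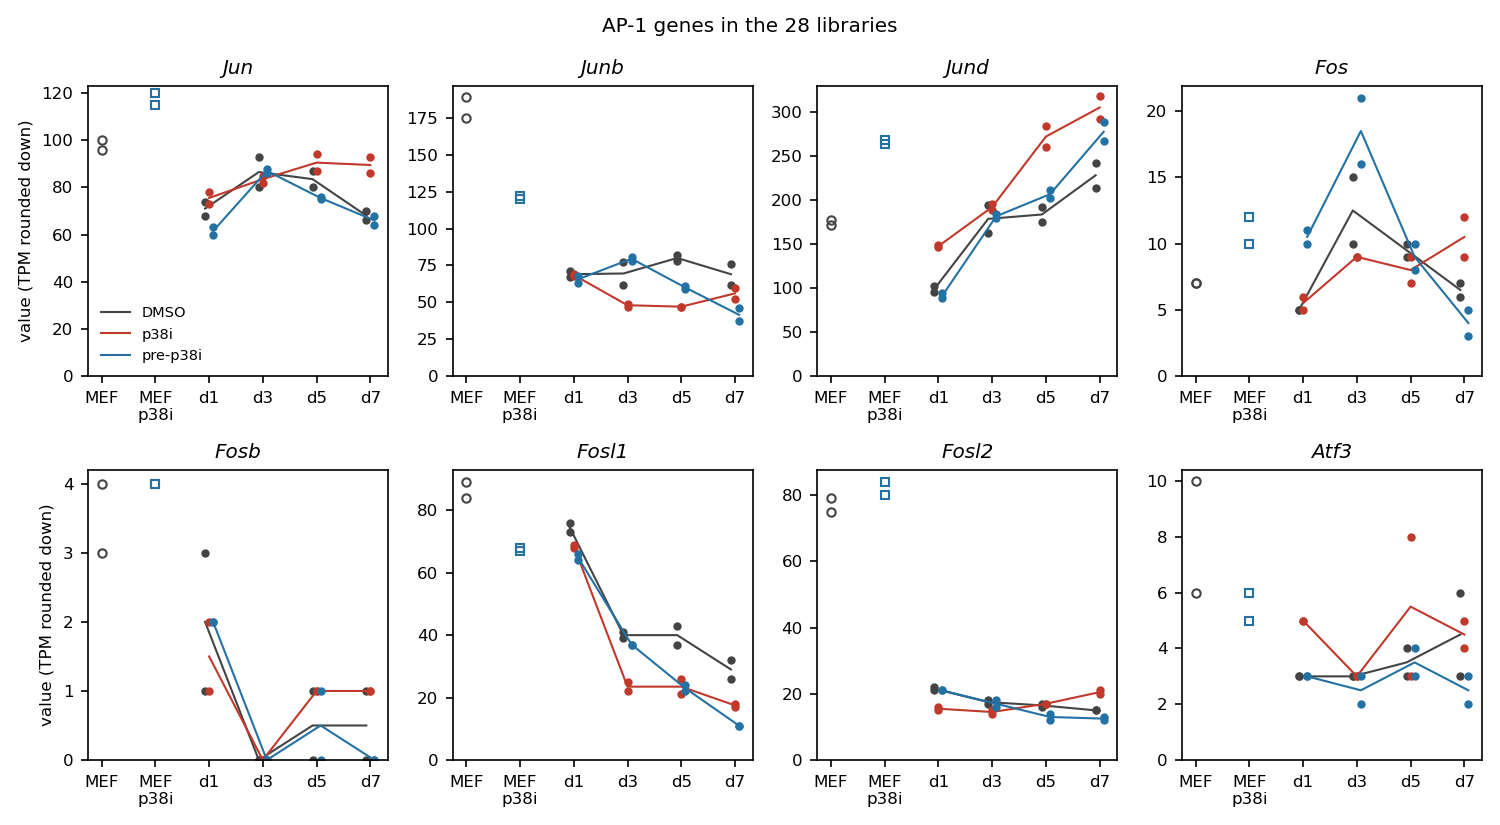
Values of the 8 genes (TPM rounded down, vertical axis from 0, own scale in each panel) in untreated and p38i-treated MEFs (open symbols) and on days 1, 3, 5 and 7 (d1 to d7) in the DMSO, p38i and pre-p38i arms. Points are single libraries and lines join the means of 2, and Fosl2 at most at 22 after induction stands far below its MEF libraries at 75 to 84.

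The first question was how the family changes when MEFs are induced without inhibitor. Against untreated MEFs, DMSO cells on day 1 had 5 of the 8 genes lower and none higher, where 55.5% of all genes were called (36.6% higher and 18.9% lower). Fosl2 fell most, to 0.28 of its MEF mean (log2 fold change -1.79, SE 0.08, adjusted p = 4.41e-13). Junb fell to 0.38 (-1.39, SE 0.11, adjusted p = 7.62e-10) and Jund to 0.57 of the MEF mean (-0.81, SE 0.08, adjusted p = 1.71e-08). Jun fell by 0.46 on the log2 scale (SE 0.07, adjusted p = 1.53e-05) and Atf3 by 1.13 (SE 0.31, adjusted p = 0.00449). The median of the 8 was -0.73 and that of all genes 0.14. Atf3 was no longer called without untreated MEF replicate 2 (-0.81, adjusted p = 0.0834) or in a fit of only the 4 libraries compared (adjusted p = 0.0731).

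From day 1 to day 3 in DMSO, 3 of the 8 genes rose and 3 fell, where 44.5% of all genes were called (20.5% higher and 24.0% lower). Fos rose 2.50-fold (log2 fold change 1.14, SE 0.21, adjusted p = 0.000141), Jund 1.80-fold (0.84, SE 0.08, adjusted p = 2.29e-08) and Jun 1.22-fold (0.28, SE 0.07, adjusted p = 0.00344). Fosl1 fell to 0.54 of its day 1 mean (-0.88, SE 0.10, adjusted p = 5.35e-07) and Fosl2 to 0.81 (-0.28, SE 0.08, adjusted p = 0.0101). Fosb fell from 3 and 1 to 0 in both libraries (adjusted p = 0.00455). The Jun call was lost without DMSO day 1 replicate 2 (0.22, adjusted p = 0.0550) or DMSO day 3 replicate 1 (0.17, adjusted p = 0.0970), that of Fosl2 without DMSO day 1 replicate 1 (-0.25, adjusted p = 0.0716) or DMSO day 3 replicate 2 (-0.24, adjusted p = 0.0742), and that of Fosb without DMSO day 1 replicate 1 (-1.0, adjusted p = 0.0989). In a fit of only these 4 libraries, Jund and Fosl1 remained called.

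Between days 3 and 5 in DMSO, limma called 0 of the 8 genes, and 0 had an unadjusted p under 0.05, where 19.4% of all genes were called (13.8% higher and 5.57% lower). From day 5 to day 7, 3 of 8 were called, where 26.7% of all genes were called (10.3% higher and 16.4% lower). Jund rose 1.24-fold (log2 fold change 0.31, SE 0.08, adjusted p = 0.00466), while Fosl1 fell to 0.73 (-0.45, SE 0.10, adjusted p = 0.00209) and Jun to 0.81 of the day 5 mean (-0.29, SE 0.07, adjusted p = 0.00485). All 3 calls were lost without DMSO day 7 replicate 1 (Jund 0.22, adjusted p = 0.0945, Fosl1 -0.31, adjusted p = 0.0636, and Jun -0.25, adjusted p = 0.0605). Those of Jun (-0.23, adjusted p = 0.0745) and Fosl1 (-0.35, adjusted p = 0.0507) were also lost without DMSO day 5 replicate 2, and that of Jund without DMSO day 5 replicate 1 (0.24, adjusted p = 0.0632). None of the 3 was called in a fit of only these 4 libraries.

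Over the whole course, DMSO day 7 against untreated MEFs had 6 of the 8 genes lower and 1 higher, where 66.8% of all genes were called (43.0% higher and 23.8% lower). Jund was the higher one (1.31-fold, log2 fold change 0.39, SE 0.08, adjusted p = 0.000158). Fosl2 fell to 0.19 of the MEF mean (-2.28, SE 0.08, adjusted p = 4.31e-15), Fosl1 to 0.34 (-1.55, SE 0.10, adjusted p = 3.14e-11), Junb to 0.38 (-1.39, SE 0.11, adjusted p = 3.99e-10) and Jun to 0.69 (-0.52, SE 0.07, adjusted p = 2.26e-06). Fosb fell by 1.66 on the log2 scale (SE 0.40, adjusted p = 0.00111) and Atf3 by 0.73 (SE 0.31, adjusted p = 0.0471), with overlapping libraries in the case of Atf3. Fos was not called, at 6 and 7 against 7 and 7. Atf3 lost its call with a pseudocount of 0.1 (adjusted p = 0.0622), without the filter on low values (adjusted p = 0.0685), without untreated MEF replicate 2 (-0.40, adjusted p = 0.365) and without DMSO day 7 replicate 1 (-0.33, adjusted p = 0.451). It also lost it in a fit of only the 4 libraries compared (adjusted p = 0.273), as did Fosb (adjusted p = 0.0684).

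The second question was what SB203580 does to the family in MEFs that receive no factors. The p38i-treated MEFs had 2 of the 8 genes higher and 2 lower than untreated MEFs, where 17.9% of all genes were called (9.73% higher and 8.15% lower). Jund was 1.53-fold higher (log2 fold change 0.61, SE 0.08, adjusted p = 1.01e-05) and Jun 1.20-fold higher (0.26, SE 0.07, adjusted p = 0.0151). Junb fell to 0.66 (-0.58, SE 0.11, adjusted p = 0.000551) and Fosl1 to 0.78 of the untreated mean (-0.35, SE 0.10, adjusted p = 0.0180). The median of the 8 was 0.13 and that of all genes 0. Jun was no longer called without untreated MEF replicate 1 (0.23, adjusted p = 0.102) or p38i-treated MEF replicate 2 (0.23, adjusted p = 0.110). Fosl1 was no longer called without those same libraries (-0.31, adjusted p = 0.115, and -0.34, adjusted p = 0.0883) or without p38i-treated MEF replicate 1 (-0.36, adjusted p = 0.0732), and in a fit of only the 4 libraries Jund and Junb remained.

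The third question was how the inhibitor acts when present during induction. On day 1, Jund was 1.49-fold higher in p38i than in DMSO (log2 fold change 0.57, SE 0.08, adjusted p = 2.74e-05) and Fosl2 at 0.72 of the DMSO mean (-0.45, SE 0.08, adjusted p = 0.000948). These were the 2 of 8 called, where 16.1% of all genes were called (3.47% higher and 12.6% lower). In a fit of only the 4 libraries, Fosl2 was not called (adjusted p = 0.0638). On day 3, 3 of 8 were called, all lower, where 21.4% of all genes were called (5.22% higher and 16.2% lower). Fosl1 was at 0.59 of the DMSO mean (-0.75, SE 0.10, adjusted p = 1.72e-05), Junb at 0.69 (-0.52, SE 0.11, adjusted p = 0.00131) and Fosl2 at 0.83 (-0.26, SE 0.08, adjusted p = 0.0359). The Fosl2 call was lost without DMSO day 3 replicate 1 (-0.22, adjusted p = 0.186) or replicate 2 (-0.29, adjusted p = 0.0622), without p38i day 3 replicate 1 (-0.21, adjusted p = 0.201) or replicate 2 (-0.30, adjusted p = 0.0566), and after quantile normalization (-0.11, adjusted p = 0.375). A fit of only these 4 libraries called none of the 3 (adjusted p between 0.0548 and 0.147).

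On day 5, Fosl1 and Junb were again lower in p38i and Jund was higher, 3 of 8, where 26.6% of all genes were called (7.87% higher and 18.7% lower). Junb was at 0.59 of the DMSO mean (log2 fold change -0.75, SE 0.11, adjusted p = 2.37e-05) and Fosl1 at 0.59 (-0.75, SE 0.10, adjusted p = 1.43e-05). Jund was 1.48-fold higher (0.57, SE 0.08, adjusted p = 1.44e-05). Without the other groups in the fit, Fosl1 (adjusted p = 0.106) and Jund (adjusted p = 0.0659) were not called and Junb was.

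By day 7 the p38i cells differed from DMSO in 6 of the 8 genes, 4 higher and 2 lower, where 34.1% of all genes were called (16.5% higher and 17.6% lower). Jun was 1.32-fold higher (log2 fold change 0.39, SE 0.07, adjusted p = 0.000273), Jund 1.34-fold (0.42, SE 0.08, adjusted p = 0.000240), Fosl2 1.37-fold (0.43, SE 0.08, adjusted p = 0.000591) and Fos 1.62-fold (0.61, SE 0.21, adjusted p = 0.0279). Fosl1 was at 0.60 of the DMSO mean (-0.69, SE 0.10, adjusted p = 2.33e-05) and Junb at 0.81 (-0.29, SE 0.11, adjusted p = 0.0375). Fosl2 had thus been lower than in DMSO on day 1 and was higher on day 7, and the change in its difference was 0.87 (SE 0.12, adjusted p = 3.39e-05 for the interaction). The Fos call was lost without DMSO day 7 replicate 1 (0.51, adjusted p = 0.163) or replicate 2 (0.70, adjusted p = 0.0515) or p38i day 7 replicate 2 (0.42, adjusted p = 0.240), and the Junb call without DMSO day 7 replicate 2 (-0.15, adjusted p = 0.405), without p38i day 7 replicate 2 (-0.19, adjusted p = 0.295) or with no filter on low values (-0.29, adjusted p = 0.0576). In a fit of only the 4 libraries, Jun and Fosl2 remained called.

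The fourth question was what remains of an inhibitor given before induction. On day 1, Fos was 2.10-fold higher in pre-p38i than in DMSO (log2 fold change 0.94, SE 0.21, adjusted p = 0.00519), the 1 gene called of 8, where 11.6% of all genes were called (5.40% higher and 6.24% lower). On day 3 limma called 0 of 8, and 1 had an unadjusted p under 0.05, where 20.6% of all genes were called (13.8% higher and 6.87% lower). That gene was Fos, at 21 and 16 against 15 and 10 (adjusted p = 0.0680), which was called without DMSO day 3 replicate 1 (0.81, adjusted p = 0.0282). On day 5, 3 of 8 were called, all lower, where 25.6% of all genes were called (14.3% higher and 11.3% lower). Fosl1 was at 0.58 of the DMSO mean (-0.77, SE 0.10, adjusted p = 9.91e-06), Junb at 0.75 (-0.41, SE 0.11, adjusted p = 0.00696) and Fosl2 at 0.79 (-0.33, SE 0.08, adjusted p = 0.00738). The calls of Fosl2 (-0.28, adjusted p = 0.0644) and Junb (-0.37, adjusted p = 0.0570) were lost without DMSO day 5 replicate 2, that of Fosl2 also without pre-p38i day 5 replicate 2 (-0.22, adjusted p = 0.128) and that of Junb without pre-p38i day 5 replicate 1 (-0.39, adjusted p = 0.0512). In a fit of only the 4 libraries, Fosl1 (adjusted p = 0.0585) and Fosl2 (adjusted p = 0.166) were not called.

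On day 7, 4 of the 8 genes were lower in pre-p38i than in DMSO and 1 was higher, where 29.9% of all genes were called (15.4% higher and 14.5% lower). Fosl1 was at 0.38 of the DMSO mean (log2 fold change -1.31, SE 0.10, adjusted p = 6.35e-09), and no alternative ended this call. Junb was at 0.60 (-0.72, SE 0.11, adjusted p = 3.10e-05), Fos at 0.62 (-0.61, SE 0.21, adjusted p = 0.0304) and Fosl2 at 0.83 of the DMSO mean (-0.25, SE 0.08, adjusted p = 0.0333). Jund was 1.22-fold higher (0.28, SE 0.08, adjusted p = 0.00757). The median of the 8 was -0.56 and that of all genes 0.05. Fos, higher than in DMSO on day 1 and lower on day 7, changed its difference by -1.55 (SE 0.29, adjusted p = 0.000922 for the interaction).

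Leaving out 1 library ended 3 of these day 7 calls. Fos was not called without DMSO day 7 replicate 1 (log2 fold change -0.71, adjusted p = 0.0565) or replicate 2 (-0.51, adjusted p = 0.173) or pre-p38i day 7 replicate 2 (-0.32, adjusted p = 0.355). Fosl2 was not called without those same libraries (-0.25, adjusted p = 0.109, then -0.25, adjusted p = 0.115, and -0.19, adjusted p = 0.200). Jund was not called without DMSO day 7 replicate 2 (0.20, adjusted p = 0.130) or pre-p38i day 7 replicate 1 (0.23, adjusted p = 0.0867). A fit of only the 4 libraries of pre-p38i and DMSO day 7 kept Fosl1 alone. The comparisons of p38i and of pre-p38i with DMSO share their DMSO libraries.

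The 2 windows of inhibition were then compared with each other. The DMSO means do not enter this comparison, but the DMSO libraries stayed in the model that gave its spread. On day 1, p38i had 2 of 8 genes higher and 2 lower than pre-p38i, where 28.2% of all genes were called (8.25% higher and 19.9% lower). Jund was 1.61-fold higher (log2 fold change 0.68, SE 0.08, adjusted p = 1.14e-06) and Jun 1.23-fold higher (0.29, SE 0.07, adjusted p = 0.00438). Fos was at 0.52 of the pre-p38i mean (-0.83, SE 0.21, adjusted p = 0.00498) and Fosl2 at 0.74 (-0.42, SE 0.08, adjusted p = 0.000934). Jun was not called without p38i day 1 replicate 1 (0.24, adjusted p = 0.0592), Fos not without p38i day 1 replicate 2 (-0.71, adjusted p = 0.0555), and neither in a fit of only the 4 libraries.

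On day 3, 4 of 8 were called between the windows, all lower in p38i, where 42.2% of all genes were called (10.7% higher and 31.4% lower). Fos was at 0.49 of the pre-p38i mean (log2 fold change -0.95, SE 0.21, adjusted p = 0.000970), Junb at 0.60 (-0.72, SE 0.11, adjusted p = 1.95e-05), Fosl1 at 0.64 (-0.64, SE 0.10, adjusted p = 3.97e-05) and Fosl2 at 0.85 (-0.21, SE 0.08, adjusted p = 0.0478). The direction of Fosl2 turned after quantile normalization (0.02, adjusted p = 0.873), and its call was lost without p38i day 3 replicate 1 (-0.17, adjusted p = 0.231) or replicate 2 (-0.26, adjusted p = 0.0599), without pre-p38i day 3 replicate 1 (-0.13, adjusted p = 0.341) and in a fit of only the 4 libraries. On day 5, 3 of 8 were higher and 1 lower, where 47.5% of all genes were called (16.3% higher and 31.1% lower). Jund was 1.32-fold higher (0.39, SE 0.08, adjusted p = 0.000257), Fosl2 1.31-fold (0.37, SE 0.08, adjusted p = 0.00139) and Jun 1.20-fold (0.26, SE 0.07, adjusted p = 0.00580), and Junb was at 0.78 (-0.35, SE 0.11, adjusted p = 0.0108). Jun was not called without p38i day 5 replicate 1 (0.20, adjusted p = 0.0729), Junb not without pre-p38i day 5 replicate 2 (-0.32, adjusted p = 0.0618) or after quantile normalization (-0.20, adjusted p = 0.120), and Jun and Fosl2 not in a fit of only the 4 libraries.

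On day 7, 6 of the 8 genes were higher in p38i than in pre-p38i and none lower, where 54.3% of all genes were called (24.8% higher and 29.5% lower). Fos was 2.63-fold higher (log2 fold change 1.22, SE 0.21, adjusted p = 5.06e-05), Fosl2 1.64-fold (0.67, SE 0.08, adjusted p = 1.46e-06), Fosl1 1.59-fold (0.62, SE 0.10, adjusted p = 2.72e-05), Jun 1.36-fold (0.43, SE 0.07, adjusted p = 3.82e-05) and Junb 1.35-fold (0.43, SE 0.11, adjusted p = 0.00194). Fosb was 1 and 1 against a listed 0 in both pre-p38i libraries (adjusted p = 0.0404). The median of the 8 was 0.64 and that of all genes -0.05. Fosb was not called without either p38i day 7 replicate 1 (1.00, adjusted p = 0.111) or replicate 2 (1.00, adjusted p = 0.113), without either pre-p38i day 7 replicate 1 (1.00, adjusted p = 0.111) or replicate 2 (1.00, adjusted p = 0.112), or after quantile normalization (0.62, adjusted p = 0.0965). Junb was not called without pre-p38i day 7 replicate 2 (0.27, adjusted p = 0.0624), and a fit of only the 4 libraries did not call Junb (adjusted p = 0.133) or Fos (adjusted p = 0.0659).

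**Figure D2:**
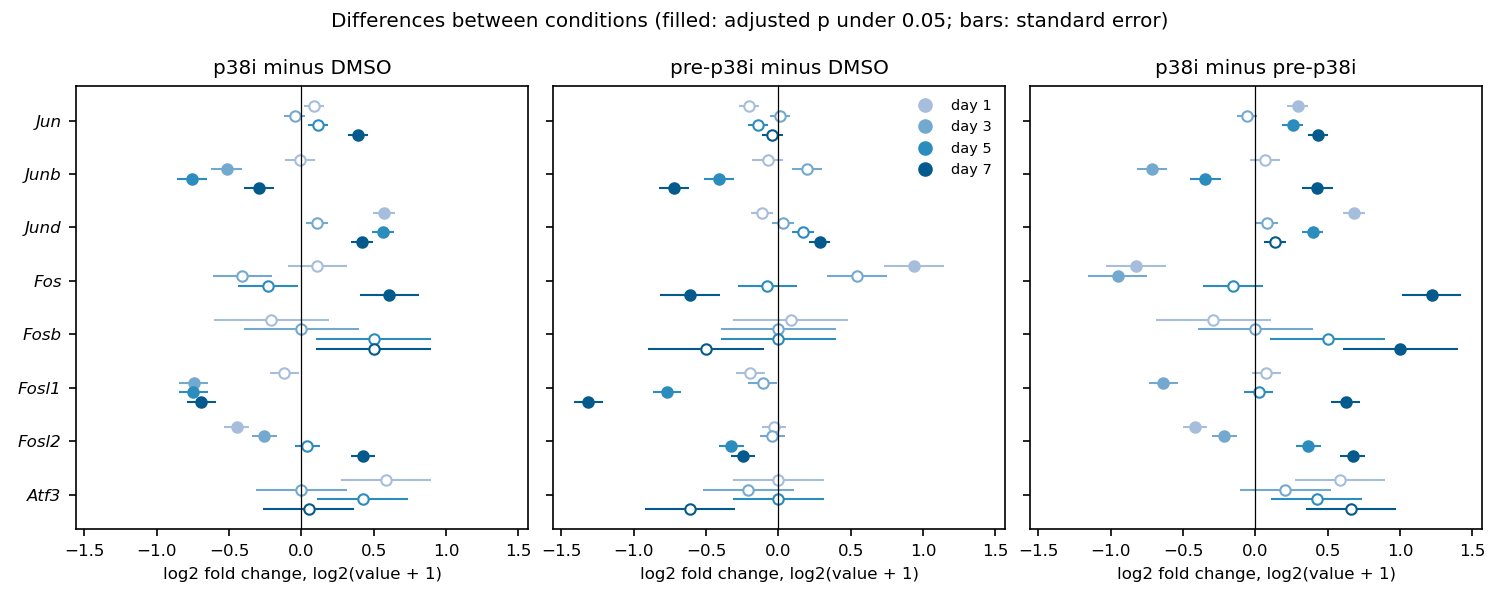
Log2 fold changes on the log2(value + 1) scale (horizontal axis, the same in all panels) of the 8 genes between conditions on days 1, 3, 5 and 7, with bars for the standard error. Filled points have an adjusted p under 0.05, and Fosl1 lies left of 0 against DMSO in both arms, at -0.69 in p38i and -1.31 in pre-p38i on day 7.

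The last comparison followed MEFs that had seen the inhibitor into their first day of induction. Against p38i-treated MEFs, pre-p38i day 1 had 4 of 8 genes lower and none higher, where 56.0% of all genes were called (35.3% higher and 20.7% lower). Fosl2 fell to 0.26 of the MEF mean (log2 fold change -1.92, SE 0.08, adjusted p = 1.35e-13), Jund to 0.34 (-1.53, SE 0.08, adjusted p = 8.59e-13), Jun to 0.52 (-0.92, SE 0.07, adjusted p = 9.28e-10) and Junb to 0.54 (-0.88, SE 0.11, adjusted p = 5.72e-07). No alternative ended any of these 4 calls. Set against the fall in untreated MEFs on entering induction, the fall was larger for Jund (difference -0.72, SE 0.11, adjusted p = 0.000222) and Jun (-0.46, SE 0.10, adjusted p = 0.00672) and smaller for Junb (0.51, SE 0.15, adjusted p = 0.0403). These were 3 of 8 where 7.95% of all genes were called. In pre-p38i cells inhibition ended as induction began, so the 2 cannot be told apart in these differences. The mean of Jund was 265.5 in p38i-treated and 174 in untreated MEFs, and 91.5 in pre-p38i and 99 in DMSO on day 1. Without the filter on low values (adjusted p = 0.0609) or with a replicate block (adjusted p = 0.0711) the Junb difference was not called. After quantile normalization it was 0.43 (adjusted p = 0.0967). The Junb difference was lost on leaving out any 1 of the 8 libraries of these groups (0.45 to 0.56, adjusted p between 0.0535 and 0.132).

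Added together, the 8 genes came to 636 ± 5.66 (SD, n = 2) in untreated MEFs and 674 ± 7.07 in p38i-treated MEFs. They came to 345 ± 15.6 in DMSO on day 1 and 420.5 ± 0.707 on day 7, against 504.5 ± 16.3 in p38i and 415 ± 25.5 in pre-p38i on day 7. Within that sum the 3 Jun genes held 71.4% ± 0.699 in untreated MEFs, 69.3% ± 0.156 in DMSO on day 1 and 86.8% ± 1.83 on day 7. In p38i they reached 89.3% ± 0.906 and in pre-p38i 92.8% ± 0.103 on day 7. The 4 Fos genes made up 27.4% ± 1.13 in untreated MEFs, 12.1% ± 1.32 in DMSO on day 7, 9.82% ± 0.737 in p38i and 6.62% ± 0.105 in pre-p38i. In every arm the Jun genes held a larger share on day 7 than on day 1, and Jund alone went from 27.4% ± 0.910 in untreated MEFs to 54.2% ± 4.80, 60.4% ± 1.70 and 66.9% ± 0.524 on day 7 in DMSO, p38i and pre-p38i. These shares were not tested, and they describe RNA, not the proteins that form the dimer.

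**Figure D3:**
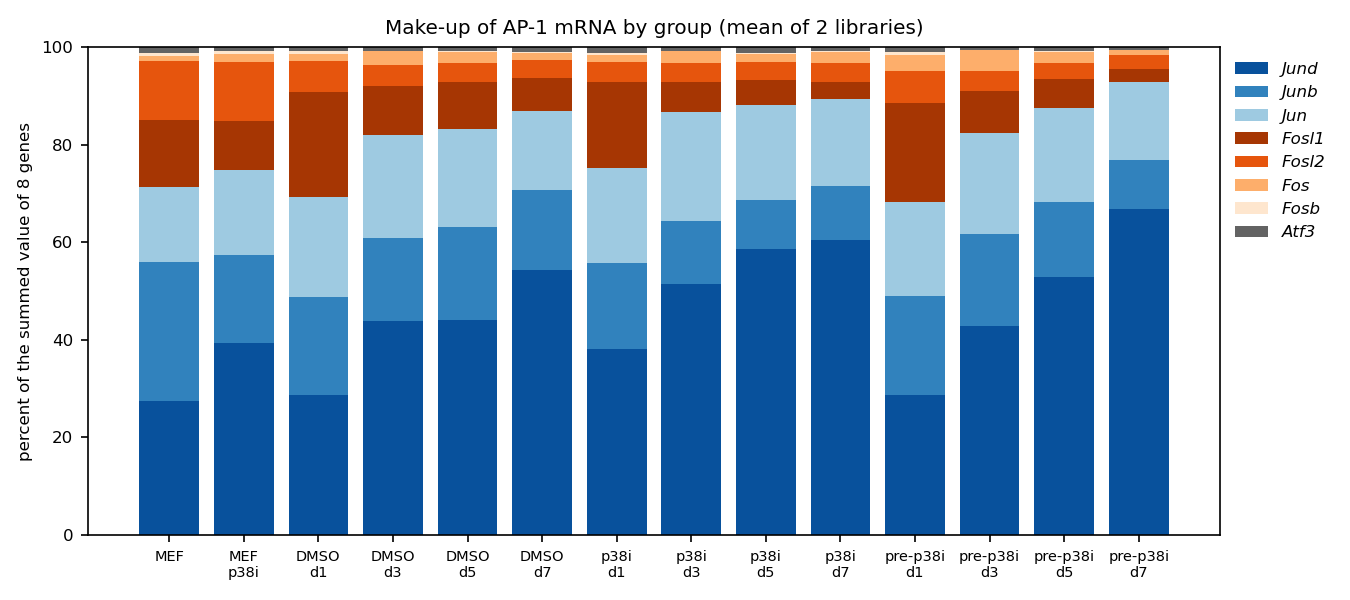
Share of each gene (percent, vertical axis) in the summed value of the 8 genes by group, mean of 2 libraries, with Jun genes in blue, Fos genes in orange and Atf3 in grey. The share of Jund is 28.7% in DMSO and 28.6% in pre-p38i on day 1 and 54.2% and 66.9% on day 7.

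Genes known as targets of AP-1 were described from a list of 15, among them matrix metalloproteinases and the proliferins. This list and the others below were chosen with earlier results of these data known. Their counts are a description and no independent support. In p38i-treated against untreated MEFs, 12 of the 15 were lower and 1 was higher, with a median log2 fold change of -1.0 against 0 for all genes, of which 8.15% were lower and 9.73% higher. Prl2c3 and Prl2c2, proliferins whose near-identical copies may split their reads, went from means of 17 and 11.5 to a listed 0 and to 0.5. Mmp9, a gelatinase, went from 5 to a listed 0, and cyclin D1 (Ccnd1) was the 1 gene higher, 227.5 against 182.5. All matrix metalloproteinases of the list were near the floor, at means of 1.5 to 5 in untreated MEFs and a listed 0 in p38i-treated MEFs. In pre-p38i on day 7, 13 of 15 were lower than in DMSO and none higher (median -1.14, all genes 0.05), beside 14.5% and 15.4% of all genes. Prl2c2 was at 18.5 against 108.5 (adjusted p = 9.57e-07), Spp1, which encodes osteopontin, at 64 against 356 (adjusted p = 6.11e-14) and Prl2c3 at 9.5 against 43 (adjusted p = 2.14e-07).

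In p38i on day 7 the targets were split, 6 lower and 5 higher than in DMSO (median 0.05, all genes 0), beside 17.6% and 16.5% of all genes. The collagenase Mmp13 was at a listed 0 against 4, the stromelysin Mmp3 at 7.5 against 33 (adjusted p = 3.80e-06) and Prl2c3 at 13 against 43 (adjusted p = 3.94e-06). Spp1 was higher at 738 against 356 (adjusted p = 1.79e-08), the integrin gene Itga5 at 54.5 against 37.5 (adjusted p = 3.05e-05) and heme oxygenase Hmox1 at 239.5 against 185 (adjusted p = 0.000116). On days 1, 3 and 5 the counts in p38i were 7, 9 and 9 lower with 2, 0 and 0 higher, and in pre-p38i 8, 9 and 13 lower with none higher. Of all genes, 12.6%, 16.2% and 18.7% were lower in p38i on those days and 6.24%, 6.87% and 11.3% in pre-p38i. Between the windows on day 7, 9 of the 15 were higher in p38i and 2 lower (median 0.78, all genes -0.05), beside 24.8% and 29.5% of all genes.

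Entry into induction split the same list. In DMSO on day 1 against untreated MEFs, 6 targets were higher and 5 lower (median 0.11, all genes 0.14), and on day 7 5 were higher and 9 lower (median -0.73, all genes 0.20). Of all genes, 36.6% were higher and 18.9% lower on day 1, and 43.0% and 23.8% on day 7. On day 1 Mmp3 went from a mean of 1.5 to 32 and Mmp10, another stromelysin, from 1.5 to 13.5. The members of the list thus went in opposite directions while Fosl2, Junb, Jund and Jun fell.

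Most of 15 other immediate early genes also fell at entry into induction. In DMSO on day 1, 13 of 15 were lower than in untreated MEFs and 1 higher (median -1.42, all genes 0.14), and on day 7, 13 were lower and none higher (median -1.61, all genes 0.20), where 18.9% and 23.8% of all genes were lower. Cyr61, a matricellular gene of serum response, went from 931.5 to 122.5 on day 1, Egr3 from 5 to a listed 0 and Ier5 from 126.5 to 22.5, and Klf10, at 36.5 against 28, was the 1 gene higher and was not called after quantile normalization. In p38i-treated MEFs 4 were lower and 1 was higher (median -0.22, all genes 0), against 8.15% and 9.73% of all genes. Nr4a1 was at 25 against 43 (adjusted p = 7.90e-05), Btg2 at 32 against 43.5 and Ier5 at 95.5 against 126.5. Egr1 was the 1 gene higher, at 173.5 against 72 (adjusted p = 0.00301). On day 7, p38i had 5 higher and 4 lower than DMSO (median 0), with the phosphatase gene Dusp1 at 40 against 19.5 and Myc at 18.5 against 41, while pre-p38i had 2 higher and 6 lower (median -0.33, all genes 0.05), with Cyr61 at 29.5 against 86.5, Egr1 at 8.5 against 17.5 and Dusp1 at 10 against 19.5. On that day 16.5% of all genes were higher and 17.6% lower in p38i, and 15.4% and 14.5% in pre-p38i.

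Among 12 other bZIP genes of or near the family, 11 were tested. In p38i on day 7, 4 were higher than in DMSO and none lower (median 0.11, all genes 0), Creb5 at 1.5 against a listed 0, Maf at 8 against 3.5 and Jdp2, which encodes a repressor that pairs with Jun proteins, at 30 against 19. In pre-p38i on day 7, 1 was higher and 3 were lower (median -0.21, all genes 0.05), with Maff at 21 against 30, Mafk at 23.5 against 33 and Jdp2 at 15 against 19. Jdp2 also fell at entry into induction, from 68 to 25 in DMSO on day 1 (adjusted p = 7.64e-10). In p38i-treated MEFs, 2 of the 11 were higher and 1 lower (median -0.07, all genes 0). The shares of all genes are those given for the immediate early genes, and the 3 of 11 in MEFs and 4 of 11 in each arm on day 7 stand beside 17.9%, 34.1% and 29.9% called in either direction.

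Of 20 kinases and factors upstream of AP-1, 3 were higher and 1 lower in p38i-treated MEFs (median 0.06, all genes 0). Map2k6, which encodes the p38 activator MKK6, stood at 20.5 against 5.5 in MEFs (adjusted p = 1.65e-08) and at 26.5 against 9.5 in p38i on day 7 (adjusted p = 1.63e-07), where 8 of 20 were higher and 1 lower (median 0.10, all genes 0). In pre-p38i on day 7, 3 were higher and 3 lower (median 0.04, all genes 0.05). The 4 of 20 in MEFs and 6 of 20 in pre-p38i are near the 17.9% and 29.9% called among all genes, and the 9 of 20 in p38i stand beside 34.1%. Of 6 heat shock and handling stress genes, 1 was higher in p38i-treated MEFs (median 0.08, all genes 0), 3 were lower in p38i on day 7 (median -0.09, all genes 0), and 1 was higher and 1 lower in pre-p38i on day 7 (median -0.06, all genes 0.05), against the same shares of all genes.

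**Figure D4:**
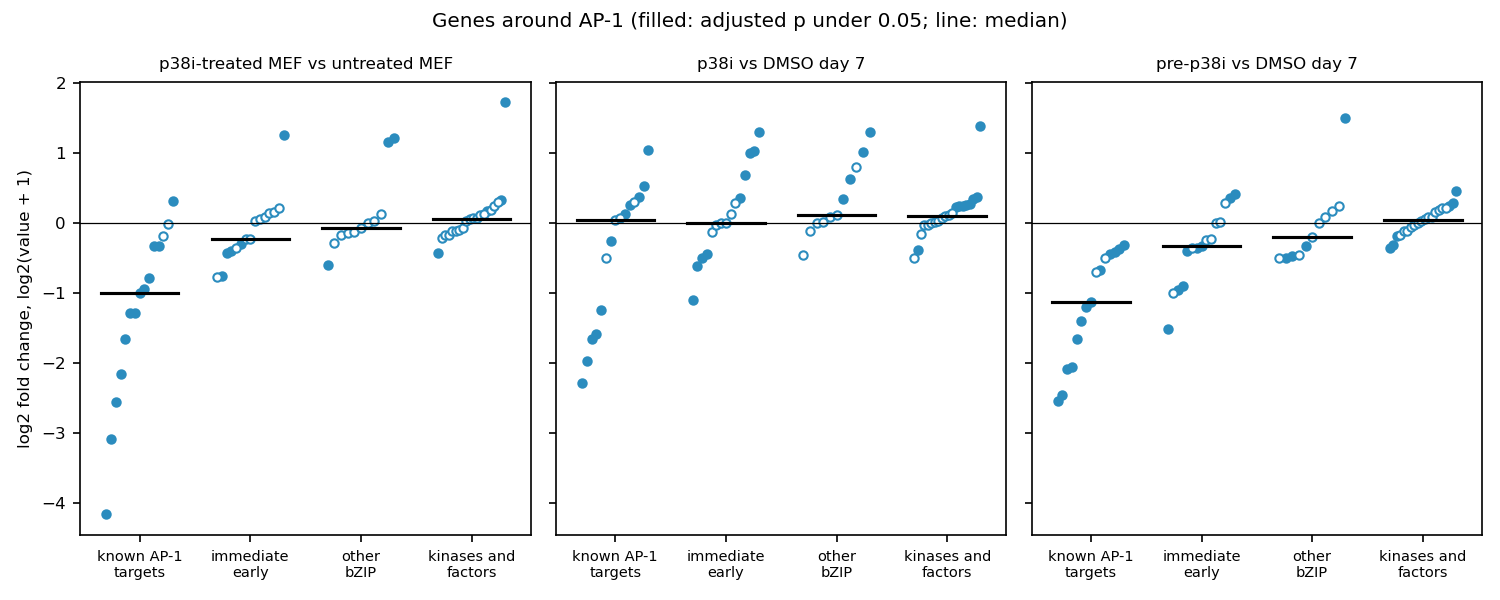
Log2 fold changes on the log2(value + 1) scale (vertical axis) of each tested gene in 4 lists around AP-1, for p38i-treated against untreated MEFs and for p38i and pre-p38i against DMSO on day 7. Filled points have an adjusted p under 0.05 and the black line is the list's median, which for AP-1 targets is -1.0, 0.05 and -1.14 from left to right.

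The genes whose means over the 14 groups were most like those of a member were sought among 10132 genes with a mean of at least 5, as a description. For Fosl2 they were Medag (Pearson r = 0.987 over the 14 group means), Cd248 (0.986) and Vcl (0.982). Fosl1 was most like Abcg2 (0.969), Styk1 (0.966) and Slit3 (0.962), and Junb most like Bcar1 (0.969), Zfp36 (0.952) and Il4ra (0.934). For Jund they were Clybl (0.923), Ttc7 (0.919) and Lrfn4 (0.900), for Jun Hs2st1 (0.906), Arhgef25 (0.904) and Dctn1 (0.901), and for Fos Lrrc8a (0.865), Fstl1 (0.855) and Tbx15 (0.828). Among the members, Junb and Fosl2 had the highest r (0.855), and Jund and Fosl1 the lowest (-0.679). The 2 MEF groups both stood at the top of the order for Jun, Junb and Fosl2, but not for Jund, Fos or Fosl1. Fosb also had both at the top, at means of 4 in p38i-treated and 3.5 in untreated MEFs. For Atf3, untreated MEFs came first at 8, and p38i-treated MEFs and p38i day 5 tied at 5.5. Both of these genes were low and their neighbouring groups overlapped. These r values describe the course of the experiment.

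Cell type markers moved over the same groups, and their part in the results was not tested. The summed value of the 8 fibroblast markers was 4170 to 4171 in p38i-treated MEFs, 3574 to 3780 in DMSO on day 1, and 1385 to 1467 in DMSO, 1533 to 1581 in p38i and 776 to 830 in pre-p38i on day 7. The 6 epithelial markers summed to 444 to 466, 202 to 219 and 856 to 896 in those day 7 groups, and the 6 pluripotency genes to 73 to 83, 8 to 10 and 126 to 132, with Dppa5a, Esrrb, Utf1 and Dppa4 at 0 in p38i. The 10 macrophage markers summed to 281 to 287 in untreated MEFs and 200 in p38i-treated MEFs, where Ptprc and Marco were at 0, and to 233 to 243, 197 to 234 and 40 to 51 on day 7. The 4 endothelial markers summed to 2 in untreated MEFs and to between 61 and 69 on day 7.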

How the data were processed

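The data are 28 RNA-seq libraries in 14 groups of 2, with groups and replicate numbers from the sample labels. Per the submitters' notes, Bowtie2 2.2.5 and RSEM 1.3.0 were used, with mm10 and hg38 named as builds without a role. The paper's text gives no aligner and no test for RNA-seq, and labels and methods differ on kit, RNA extraction and medium.

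The deposited score per gene and library is a whole number. The totals, with a median of 991691.5, are those of TPM rounded down by the authors, and this unit is inferred. Depth is unknown, so no interval was computed. Of the gene identifiers, 99.6% are in GENCODE M21, and 92.5% of genes have the same position there.

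Values were tested as log2(value + 1) with limma 3.58.1 (lmFit, then eBayes with a trend, R 4.3.3). All 14 groups were in 1 model of the 13230 genes whose mean was at least 1, with Benjamini-Hochberg adjustment over all genes. The members and lists were chosen with earlier results of these data known. Besides the members, the text names up to 3 called genes in each direction of a list in a comparison, by the size of the log2 fold change, and the 3 genes most like each member with a mean of at least 5. A further gene that this rule would name is left out. The alternatives were a pseudocount of 0.1, no filter (any value above 0), a minimum mean of 5, the replicate block, quantile normalization, only the groups compared, and leaving out each library. Promoters came from RefSeq, and plots were drawn with matplotlib 3.10.9.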

Additional observations from a re-analysis of the deposited data

Results flagged for a closer look

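Effects that differed between groups by an interaction test in limma are listed here. Between day 1 and day 7, the difference of p38i from DMSO changed in 3 of the 8 genes, where 21.6% of all genes were called. The changes on the log2 scale were 0.87 for Fosl2 (SE 0.12, adjusted p = 3.39e-05), -0.57 for Fosl1 (SE 0.14, adjusted p = 0.00651) and 0.30 for Jun (SE 0.10, adjusted p = 0.0375). The Jun change was lost without DMSO day 1 replicate 1 (0.24, adjusted p = 0.159), DMSO day 7 replicate 1 (0.26, adjusted p = 0.135), p38i day 1 replicate 2 (0.26, adjusted p = 0.135) or p38i day 7 replicate 2 (0.25, adjusted p = 0.149), after quantile normalization (adjusted p = 0.0537) and in a fit of only these groups (adjusted p = 0.0849).

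The difference of pre-p38i from DMSO changed between these days in 4 of the 8 genes, where 16.7% of all genes were called. The changes were -1.55 for Fos (SE 0.29, adjusted p = 0.000922), -1.12 for Fosl1 (SE 0.14, adjusted p = 1.33e-05), -0.65 for Junb (SE 0.15, adjusted p = 0.00492) and 0.40 for Jund (SE 0.11, adjusted p = 0.0144). Jund was lost without DMSO day 1 replicate 1 (0.35, adjusted p = 0.0622), DMSO day 7 replicate 2 (0.31, adjusted p = 0.0889), pre-p38i day 1 replicate 2 (0.36, adjusted p = 0.0586) or pre-p38i day 7 replicate 1 (0.34, adjusted p = 0.0671). In a fit of only these groups, Junb (adjusted p = 0.0868) and Jund (adjusted p = 0.0678) were not called. Both sets of changes share the DMSO libraries.

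The first day of induction differed between p38i-treated and untreated MEFs by -0.72 for Jund (SE 0.11, adjusted p = 0.000222), -0.46 for Jun (SE 0.10, adjusted p = 0.00672) and 0.51 for Junb (SE 0.15, adjusted p = 0.0403). The end of inhibition and the start of induction cannot be told apart here. Without the filter on low values (adjusted p = 0.0609) or with the replicate block (adjusted p = 0.0711) the Junb difference was not called. After quantile normalization it was 0.43 (adjusted p = 0.0967). The Junb difference was lost without untreated MEF replicate 1 (0.56, adjusted p = 0.0535) or 2 (0.45, adjusted p = 0.132), p38i-treated MEF replicate 1 (0.50, adjusted p = 0.107) or 2 (0.52, adjusted p = 0.0860), DMSO day 1 replicate 1 (0.55, adjusted p = 0.0706) or 2 (0.47, adjusted p = 0.124), and pre-p38i day 1 replicate 1 (0.46, adjusted p = 0.131) or 2 (0.56, adjusted p = 0.0581).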

How the results depend on the processing

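Of 80 calls of members over the 22 comparisons, 38 were kept under every alternative run and 42 were lost under at least 1, of which 28 were lost on leaving out 1 library and 14 were lost only in the fit of the groups compared. That fit, which rests on fewer libraries, lost 38. Its numbers of members called were 2 in p38i-treated MEFs, 0, 1 and 2 for p38i against DMSO on days 3, 5 and 7, 1 and 1 for pre-p38i on days 5 and 7, 2 for p38i against pre-p38i on day 5, 2 for DMSO day 3 against day 1, 0 for DMSO day 7 against day 5 and 2 for the change in pre-p38i. Leaving out 1 library gave between 2 and 4 members called in p38i-treated MEFs, 0 to 1 for pre-p38i on day 3, 1 to 3 on day 5 and 2 to 4 on day 7, and 0 to 4 for DMSO day 7 against day 5. Quantile normalization raised the number to 2 for pre-p38i on day 1 and to 8 for DMSO day 1 against MEFs, and reversed Fosl2 between p38i and pre-p38i on day 3 (0.0202). It moved the median of all genes by over 0.1 in 7 comparisons: -0.211 and -0.301 for DMSO days 1 and 7 and -0.177 for pre-p38i day 1 against MEFs, 0.119 and 0.105 for p38i against DMSO on days 3 and 5, and 0.207 and 0.142 for p38i against pre-p38i on those days. Of all genes called, the share that was higher went from 21.6% to 41.1%, 24.4% to 50.0% and 29.6% to 52.7% for p38i against DMSO on days 1, 3 and 5, from 29.3% to 44.5%, 25.5% to 53.7% and 34.4% to 52.9% for p38i against pre-p38i, from 66.7% to 50.7% for pre-p38i against DMSO on day 3, from 65.9% to 47.5% and 64.4% to 44.8% for DMSO days 1 and 7 against MEFs, from 71.3% to 50.8% for DMSO day 5 against day 3 and from 63.1% to 47.1% for pre-p38i day 1 against p38i-treated MEFs. Within a time point, the deviations of same-numbered libraries were barely correlated over all genes tested (r between -0.0159 and 0.0513 over 13 pairs). The labels do not say whether such libraries share a MEF preparation or batch, and these r values cannot decide it. The replicate block lost 5 of the 80 calls (Junb in p38i on day 7, adjusted p = 0.0573) and left every number of members called within 1.5 times. Members not called were called under at least 1 alternative in 16 cases, 5 of them on leaving out 1 library: Fos as given above, Fosb in DMSO day 1 against MEFs without DMSO day 1 replicate 1 (-1.16, adjusted p = 0.0440), Junb in DMSO day 7 against day 5 without DMSO day 7 replicate 2 (-0.36, adjusted p = 0.0402), and Atf3 in p38i on day 5 without p38i day 5 replicate 1 against DMSO (1.01, adjusted p = 0.0309) and pre-p38i (1.01, adjusted p = 0.0157). Over all genes, the fit of only the groups compared moved 14 of 22 counts by more than 1.5 times, from 2365 to 904 in p38i-treated MEFs. Leaving out 1 library lowered 16 such counts by more than 1.5 times. They went from 2365 to 1515 and 1571 in p38i-treated MEFs without replicates 1 and 2 of these, and for p38i on day 1 from 2128 to 1150 without DMSO replicate 1 and 1299 without p38i replicate 2. For pre-p38i on day 1 they went from 1539 to 894 and 874 without DMSO replicates 1 and 2 and to 950 and 856 without pre-p38i replicates 1 and 2, and on day 3 from 2729 to 1698 without DMSO replicate 1 and to 1568 and 1776 without pre-p38i replicates 1 and 2. DMSO day 5 against day 3 went from 2569 to 1578 without day 3 replicate 1 and 1468 without day 5 replicate 2, DMSO day 7 against day 5 from 3532 to 2136 without day 5 replicate 2 and 2211 without day 7 replicate 1, and the difference between the first induction days from 1052 to 695 without DMSO day 1 replicate 1. Of 220 counts of list genes called higher or lower, quantile normalization moved 48 by more than 1.5 times and a pseudocount of 0.1 moved 5. The cause of these shifts was not tested, and since depth is unknown, what it limits was not measured.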
